A study of Mus musculus with 8 samples.

Results

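The 9 genes described here encode transcription factors that drive epithelial-mesenchymal transition (EMT): Snai1, Snai2, Twist1, Twist2, Zeb1, Zeb2, Prrx1, Foxc2 and Tcf4. They were chosen by name from the 21938 protein-coding genes of the GENCODE M21 annotation, with earlier results of these data known. The values given for each are the peaks of acetylated histone H3 lysine 27 (H3K27ac) in its gene body plus 50 kb on either side, called its window below. In EMT an epithelial cell loses its cell-cell junctions and takes on the shape and motility of a mesenchymal cell. The Snail, Twist and Zeb families bind E-boxes, short sites spelled CANNTG, and the Snail and Zeb proteins are best known for repressing E-cadherin. These genes are also active outside carcinoma cells, for example in fibroblasts (Prrx1, Twist1, Twist2, Zeb1) and in myeloid cells (Zeb2), and H3K27ac marks promoters and enhancers in use in whichever cells carry it.

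The data are ChIP-seq (chromatin immunoprecipitation and sequencing) of H3K27ac in breast tumors of Balb/c mice, 2 tumors per group, each from a separate mouse. Control tumors arose in PyMT;Rag1KO mice, in which the mouse mammary tumor virus promoter drives the polyoma middle T oncogene and loss of Rag1 leaves no mature T or B cells of the host's own. Test tumors arose in K14-TSLPtg;PyMT;Rag1KO mice, which in addition carry TSLP (thymic stromal lymphopoietin, an epithelial cytokine) driven by the promoter of keratin 14, which is active in skin and other keratin 14-positive epithelium. Wild-type CD4+ T cells were given to mice of both groups at 4 weeks of age, and tumors were taken at terminal size. The comparison asks how the acetylation of tumors differed between mice with and without the TSLP transgene, and the sample titles call the controls tumor and the tests cyst. Each library was made from a piece of whole tumor, so fewer cells of a type and less acetylation per cell cannot be told apart.

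Each tumor's list held 59762 to 69861 peak intervals covering 64.3 to 73.1 Mb, and test 2 had the fewest intervals and the least coverage. The lists give positions only, with no height, so the depth of the libraries is unknown and a region without a peak may still carry weak acetylation. Across all genes with a peak in the window, 43.3% had their lowest coverage in test 2, and this applies to each comparison below. With 2 tumors against 2 the smallest two-sided exact permutation p is 0.333, so no difference below could reach 0.05 by that test, and none is called significant. Groups are called separate where both tumors of a group lay above both of the other.

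Peaks over the EMT transcription factors were fewer and covered less in the test tumors. The 9 windows, 1691 kb in all, held 90 and 84 peaks in control 1 and control 2, and 77 and 54 in test 1 and test 2. Peaks covered 5.30% and 4.75% of these windows in the controls and 3.88% and 2.89% in the tests. Over the whole genome the lists held 69861 and 67850 intervals in the controls and 65763 and 59762 in the tests. They covered 2.68% and 2.49% of the genome in the controls and 2.68% and 2.36% in the tests. Most of the gap in the 9 windows lay at Prrx1, Zeb2 and Tcf4, the 3 genes whose window coverage was higher in both controls than in both tests. For background, 13% of the 18693 genes with a peak were separate in that direction and 17.3% in the other, in which none of the 9 was separate. The median difference, test mean minus control mean, was -0.536 percentage points over the 9 genes and 0.0192 over all genes with a peak. For the 9 genes it was -1.15 without test 1 and -0.307 without test 2. Coverage was lower in the test mean for 8 of the 9, against 48.6% of all genes with a peak, and for 7 of the 9 the lowest tumor was test 2. Without test 2 it was lower in test 1 than in the control mean for 7 of the 9, against 35.6% of all genes. From test 1 alone the difference was 0.723 for Snai1, 0.0758 for Snai2 and -0.157 for Foxc2, each of the opposite sign to that with both tests.

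**Figure D1:**
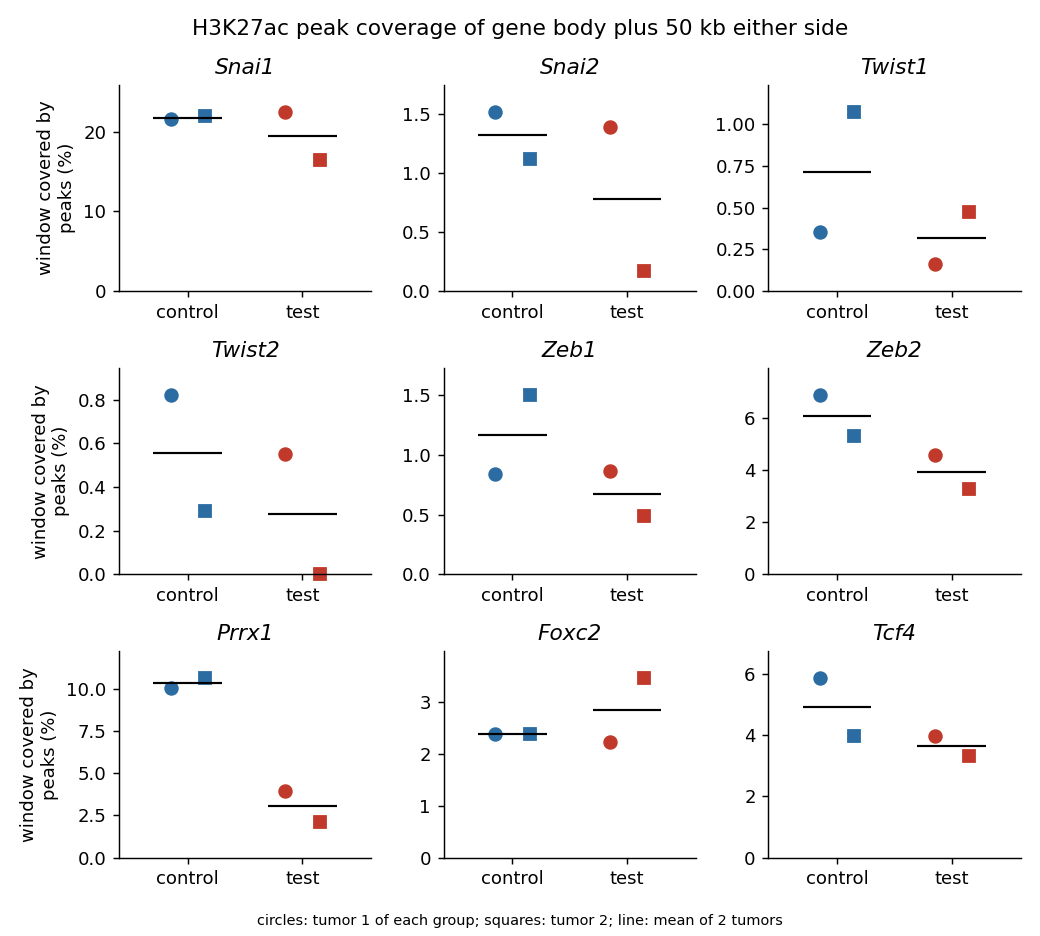
Percent of each gene's window (gene body plus 50 kb either side) covered by H3K27ac peaks, one panel per gene and one point per tumor, with lines at the mean of 2 tumors. The vertical scales differ between panels and all start at 0, and the control and test points are separate for Zeb2, Prrx1 and Tcf4, with Prrx1 at 10.1% and 10.6% in the controls against 3.95% and 2.12% in the tests.

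Near the start of transcription, too, coverage was mostly lower in the test tumors. Within 10 kb of the transcription start site, taken as the 5′ end of the annotated gene, 8 of the 9 genes had a peak in some tumor. Coverage there was higher in both controls for Zeb1, Zeb2, Prrx1 and Tcf4, and higher in both tests for Foxc2. Over all 14792 genes with a peak in this interval, 11.6% were separate with the controls higher and 20.9% with the tests higher. The median difference of the 9 genes was -4.16 percentage points, against 0.277 over all such genes. This median was -11.1 within 2.5 kb of the start site, -7.80 with peaks within 1 kb joined, -2.77 at the best covered annotated transcript start and -2.32 without test 2. A peak within 1 kb of the start site was present for 5 and 7 of the 9 genes in the controls and for 5 and 4 in the tests. Over all protein-coding genes the shares were 53.5% and 53.9% in the controls and 54.1% and 51.96% in the tests.

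The plot of mean coverage in test against control tumors sets the 9 genes among all others. Prrx1 stood far below the diagonal, and its difference ranked at percentile 0.219 of all genes with a peak, counted from the most negative. Zeb2 ranked at percentile 6.47 and Tcf4 at 12.8, and the Tcf4 difference of -1.27 became -0.330 without control 1 and -2.22 without control 2. Snai1 ranked at percentile 5.96, but its difference of -2.27 became 0.723 without test 2. Foxc2 ranked at 75.0.

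**Figure D2:**
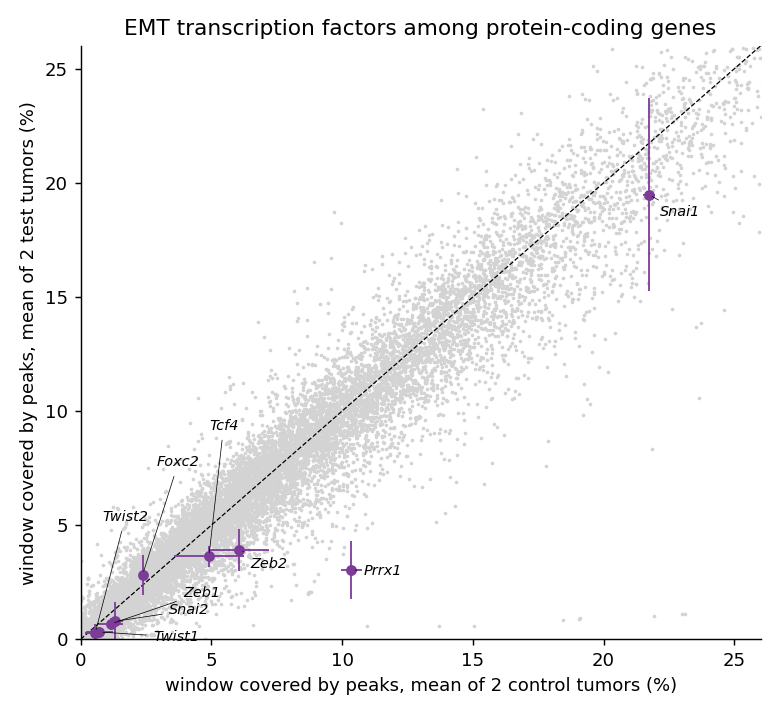
Percent of the window covered by peaks, mean of 2 control tumors (horizontal) against mean of 2 test tumors (vertical), for every protein-coding gene with a peak in the window (grey) and the 9 EMT transcription factors (purple, bars show the SD of 2 tumors). The dashed line marks equal coverage, genes beyond the axis ends are not drawn, and Prrx1 lies at 10.4% in control against 3.04% in test.

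Snai1 (Snail; ENSMUSG00000042821.7; mm10, chr2:167538195-167542814, plus strand), a zinc finger repressor of E-cadherin, was the most densely acetylated of the 9. Peaks covered 21.6% and 21.9% of its window in the controls, 22.5% in test 1 and 16.5% in test 2. The groups overlapped, with test 2 alone below the other tumors. A single region from -0.048 to 6.98 kb around the start site covered the whole gene. It held 6647 bp of peak in control 1, 6828 bp in control 2 and 7030 bp in test 1, against 2509 bp in test 2. Accordingly, peaks covered 99.8%, 100% and 100% of the gene body in these 3 tumors and 14.7% in test 2. An upstream region from -35.7 to -29.1 kb went the other way, with 4483 and 5069 bp in the controls and 6227 and 6240 bp in the tests. It was the only one of the 33 regions of these genes present in every tumor that was wider in both tests. The window also takes in the promoters of Spata2 and Rnf114, over 45 kb upstream, which carried a peak in all 4 tumors.

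A control-only region, with a peak in both controls and in neither test, lay 36.4 to 36.7 kb downstream of the Snai1 start site, in intergenic sequence past the end of the gene. It was narrow, at 179 bp in control 1 and 351 bp in control 2. Its stretch shared by the peaks of both controls (mm10, chr2:167574671-167574849, plus strand) is printed because it is the only Snai1 region with a peak in both tumors of a group and in neither of the other, and 4 further narrow regions were each found in a single control. It holds 2 E-boxes, written in capitals.
Snai1 +36 kb: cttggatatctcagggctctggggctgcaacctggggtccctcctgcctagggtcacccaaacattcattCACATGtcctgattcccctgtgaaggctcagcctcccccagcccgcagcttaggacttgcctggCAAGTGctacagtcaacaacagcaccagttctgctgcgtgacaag

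Snai2 (Slug; ENSMUSG00000022676.7; chr16:14705852-14709385, plus strand), the close relative of Snai1 that also marks basal mammary cells, had nearly all of its acetylation at the promoter. Window coverage was 1.52% and 1.12% in control 1 and 2, and 1.40% and 0.175% in test 1 and 2. The promoter region, from -0.799 to 1.01 kb, was present in every tumor and held 1361, 1161, 1447 and 181 bp in the same order. Test 1 lay within or above the controls and test 2 far below them, so the groups overlapped.

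Twist1 (ENSMUSG00000035799.6; chr12:33957671-33959829, plus strand), a basic helix-loop-helix factor of the mesoderm, was sparsely acetylated. Its window coverage was 0.356% and 1.07% in the controls against 0.163% and 0.473% in the tests, and the groups overlapped. The only region in all 4 tumors lay 16.4 kb downstream of the start site. Within 10 kb of the start site the sole tumor with a peak was control 2, which had 4 narrow peaks of 170 to 359 bp covering 4.65% of that interval.

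Twist2 (ENSMUSG00000007805.4; chr1:91801461-91848028, plus strand), its paralog, had no peak within 10 kb of the start site in any tumor. Window coverage was 0.822% in control 1, 0.291% in control 2 and 0.550% in test 1, and test 2 had no peak in the window. The widest of its 3 regions, 76.9 to 77.9 kb downstream of the start site, held 976, 427 and 586 bp in those 3 tumors. No region of Twist2 was present in every tumor.

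Zeb2 (Sip1; ENSMUSG00000026872.17; chr2:44983632-45117395, minus strand), a zinc finger and homeodomain repressor that is also expressed in macrophages, was separate between the groups. Peaks covered 6.86% of its window in control 1 and 5.29% in control 2, against 4.57% in test 1 and 3.27% in test 2. The means were 6.07% ± 1.11 (SD, n = 2) and 3.92% ± 0.917 (SD, n = 2), and the difference of -2.16 points ranged from -3.59 to -0.720 over the 4 control-test pairings (exact permutation p = 0.333). With a tumor left out the difference ran from -2.94 (without control 2) to -1.37 (without control 1). The difference was concentrated in the first 12 kb of the gene. Within 10 kb of the start site coverage was 38.9% and 29.8% in the controls and 22.0% and 10.6% in the tests. A region 4.15 to 7.51 kb into the gene held 3332 and 2544 bp in the controls and 1918 and 1121 bp in the tests. An intronic region at 44.3 to 46.3 kb had the same order, with 1801 and 1983 bp against 836 and 319 bp. Farther on, a region at 96.6 to 100 kb held 3867, 2786, 3011 and 3790 bp, and there the groups overlapped.

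At the Zeb2 promoter a region from -0.363 to 0.073 kb was control-only, with 278 bp in control 1, 378 bp in control 2 and none in the tests. The promoter as a whole carried a peak in all 4 tumors. A wider region just inside the gene, from 0.382 to 2.40 kb, held 2020 and 1371 bp in the controls and 1470 and 673 bp in the tests. The 219 bases covered in both controls (mm10, chr2:45117481-45117699, minus strand) lie from -304 to -86 bases from the annotated start site and are printed because they separate the groups at a promoter. They hold no E-box.
Zeb2 promoter: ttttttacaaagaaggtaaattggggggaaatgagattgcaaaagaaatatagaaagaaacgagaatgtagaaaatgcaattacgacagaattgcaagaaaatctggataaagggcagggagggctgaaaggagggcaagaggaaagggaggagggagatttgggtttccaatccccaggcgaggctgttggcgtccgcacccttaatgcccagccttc

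**Figure D3:**
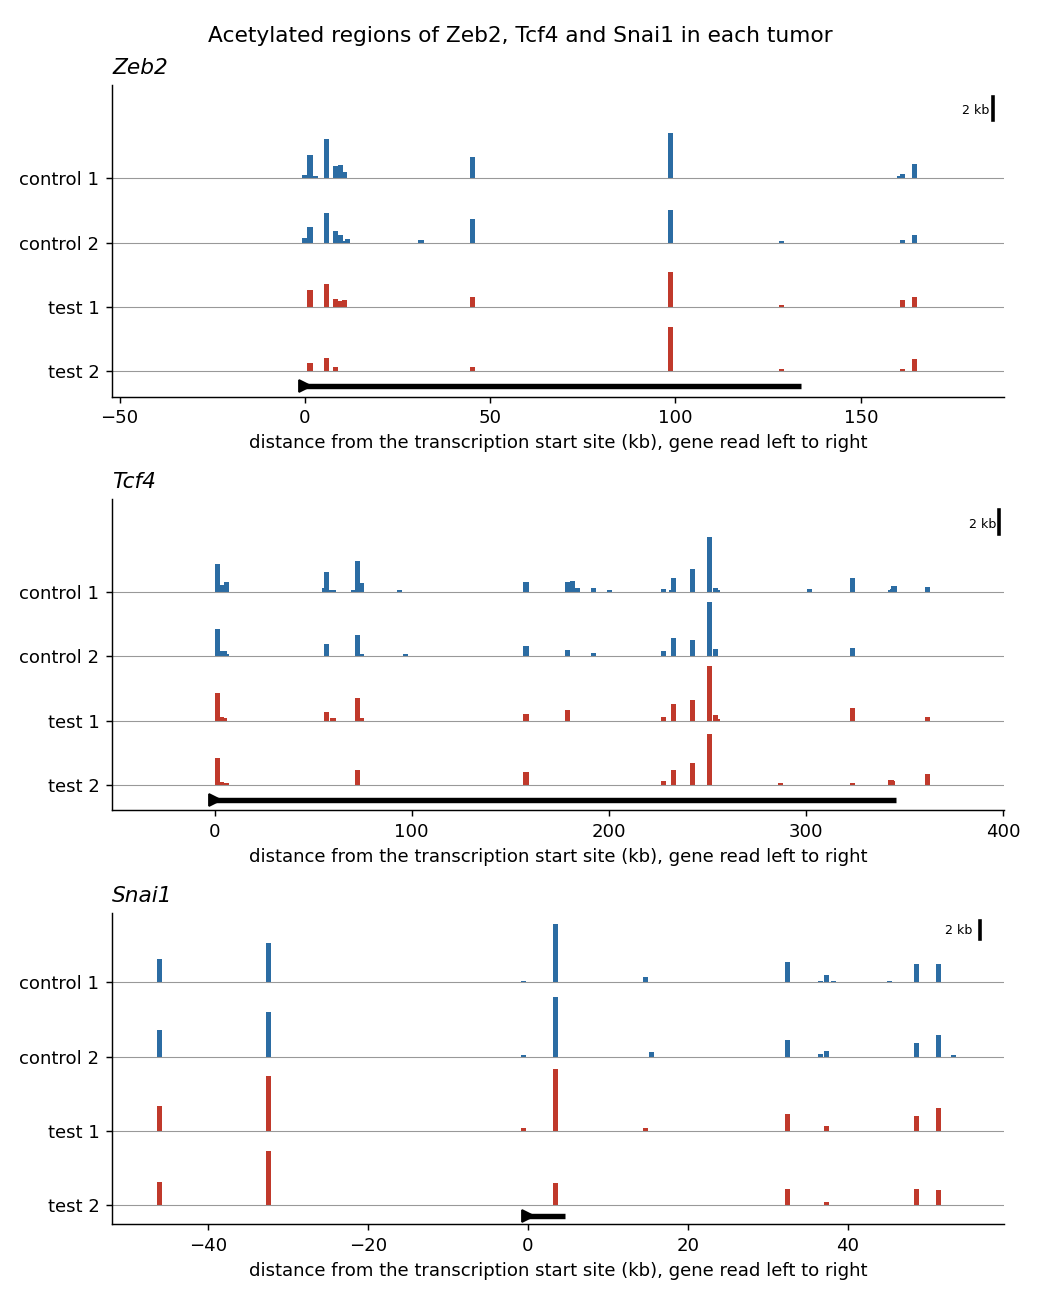
Acetylated regions of Zeb2, Tcf4 and Snai1 by distance from the start site in kb, with a row per tumor (controls blue, tests red). The height of a bar is the peak length within that region (scale bar, 2 kb), bars are drawn at the region's centre with a fixed width, and the black line is the gene read from its start; Zeb2 bars near the start are tallest in the controls and the Snai1 gene bar is short in test 2.

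Zeb1 (ENSMUSG00000024238.15; chr18:5591860-5775467, plus strand), the paralog of Zeb2, had far less. Window coverage was 0.837% and 1.50% in the controls against 0.860% and 0.492% in the tests, with the groups overlapping. Its difference of -0.492 was -0.161 without control 2. Within 10 kb of the start site the groups were separate, at 4.60% and 10.7% in the controls against 3.47% and 0 in the tests. The region just inside the gene, from 0.744 to 2.26 kb, held 920, 1517 and 694 bp in control 1, control 2 and test 1 and no peak in test 2. A region 227 kb downstream of the start site, past the end of the gene, was present in all 4 tumors at 1210, 1833, 1449 and 1394 bp.

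Tcf4 (E2-2; ENSMUSG00000053477.17; chr18:69343356-69689079, plus strand), an E protein that pairs with Twist-type factors and is also known from plasmacytoid dendritic cells, is the longest of these genes and had 36 regions. Coverage of the window was 5.85% and 3.96% in the controls against 3.95% and 3.32% in the tests. The groups were separate, though test 1 minus control 2 was -0.0126 points. With the same number of widest peaks kept in each tumor they overlapped, at 3.82% in control 2 and 3.84% in test 1. Of its regions 13 were found in control 1 alone, and 6 of these had the smallest width in that tumor's list, 155 bp. Within 10 kb of the start site coverage was 19.1% and 17.3% in the controls and 14.2% and 13.8% in the tests. The promoter region itself, from 0.453 to 2.84 kb, was nearly the same in all tumors at 2380, 2338, 2358 and 2320 bp. Its widest region lay 249 to 254 kb into the gene over an alternative transcript start and also varied little, at 4686, 4636, 4630 and 4347 bp. An intronic region at 56.1 to 57.9 kb varied more, with 1758 and 1023 bp in the controls, 757 bp in test 1 and no peak in test 2.

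Foxc2 (ENSMUSG00000046714.7; chr8:121116171-121118895, plus strand), a forkhead factor of mesoderm and lymphatic vessels, had no peak in its gene body or within 1 kb of its start site in any tumor. Peaks covered 2.37% of the window in both controls, 2.21% in test 1 and 3.45% in test 2, so the groups overlapped. Within 10 kb of the start site coverage was 8.06% and 8.78% in the controls and 9.0% and 9.59% in the tests. Most of this was a region from -8.98 to -7.25 kb that lies at the promoter of Mthfsd, a neighboring gene, with 1612, 1522, 1505 and 1684 bp. In that region the groups overlapped. The remaining peaks near the start site were a region from -9.66 to -9.43 kb, found in test 2 alone at 233 bp, and a region from 9.22 to 9.53 kb, found in control 2 at 234 bp and in test 1 at 295 bp. The neighboring forkhead genes Foxf1 and Foxl1 had no promoter peak in any tumor.

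Prrx1 (ENSMUSG00000026586.16; chr1:163245119-163313710, minus strand), a paired-related homeobox factor of limb and craniofacial mesenchyme and of fibroblasts, had the largest difference in window coverage of the 9. Near the start site Zeb2 differed by more, -18.0 points against -15.0 for Prrx1, and over gene bodies alone Snai1 did, at -42.5 against -12.7. The Snai1 groups overlapped there, with 100% of the body covered in test 1 and 14.7% in test 2. Peaks covered 10.1% of the Prrx1 window in control 1 and 10.6% in control 2, against 3.95% in test 1 and 2.12% in test 2. The controls lay close together and far above both tests. The means were 10.4% ± 0.403 (SD, n = 2) and 3.04% ± 1.29 (SD, n = 2), a 3.41-fold higher coverage in control, and the difference of -7.32 points ranged from -8.52 to -6.12 over the pairings (exact permutation p = 0.333). The window held 17 and 16 peaks in the controls and 11 and 8 in the tests. A picture of signal tracks in the study, from H3K27ac of the same groups, is labelled Prrx1, so its direction here is not independent evidence.

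The promoter of Prrx1 carried a region from -1.34 to 3.41 kb around the start site. It held 3665 bp of peak in control 1 and 3914 bp in control 2, against 1415 bp in test 1 and none in test 2. All 5 Prrx1 regions present in every tumor were wider in both controls than in both tests. The widest of them, at 30.8 to 34.1 kb, held 2991 and 3297 bp in the controls and 2507 and 929 bp in the tests, and the one at 60.1 to 62.4 kb, near the end of the gene, held 2257 and 1861 bp against 1113 and 265 bp. A further 4 regions were control-only, at 11.9, 22.5 and 35.2 kb in introns and at 74.0 kb past the end of the gene. The broadest of these, at 35.2 kb, held 1044 and 910 bp. In the other direction test 1 alone had a 166-bp region at 5.05 kb and test 2 alone a 549-bp region at 55.8 kb.

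**Figure D4:**
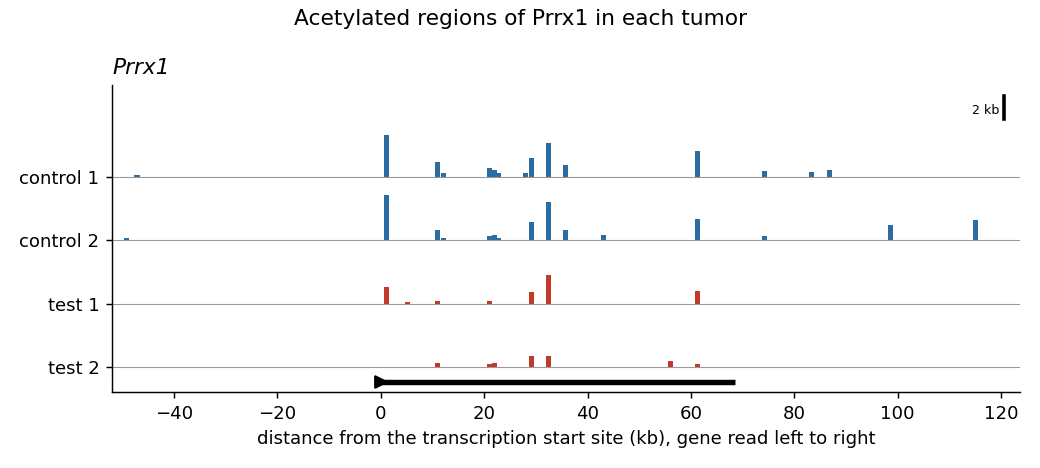
Acetylated regions of Prrx1 by distance from the start site in kb, with a row per tumor (controls blue, tests red). The height of a bar is the peak length within that region (scale bar, 2 kb) and the black line is the gene read from its start; the promoter bar is 3665 and 3914 bp in the controls, 1415 bp in test 1 and missing in test 2.

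Of the Prrx1 sequences covered by peaks in both controls and in neither test, 1 from the promoter and 2 from introns are printed as examples on the gene's strand, with CANNTG or TGANTCA matches in capitals. TGANTCA is a loose pattern that includes the core recognised by AP-1 factors, so a match need not be an AP-1 site. Both patterns read the same on either strand. The promoter sequence comprises the 190 bases (mm10, chr1:163313711-163313900) upstream of the annotated start that the RefSeq promoter table (GRCm38.p6) also holds, and it was covered over all 190 bases in each control and over none in each test. The intronic sequences are the stretch common to both controls at 12 kb (chr1:163301521-163301742) and the central 300 bases at 36 kb (chr1:163277719-163278018).
Prrx1 promoter: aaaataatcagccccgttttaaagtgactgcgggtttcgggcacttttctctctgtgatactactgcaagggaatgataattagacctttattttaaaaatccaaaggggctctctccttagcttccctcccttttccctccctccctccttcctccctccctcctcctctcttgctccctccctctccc
Prrx1 +12 kb: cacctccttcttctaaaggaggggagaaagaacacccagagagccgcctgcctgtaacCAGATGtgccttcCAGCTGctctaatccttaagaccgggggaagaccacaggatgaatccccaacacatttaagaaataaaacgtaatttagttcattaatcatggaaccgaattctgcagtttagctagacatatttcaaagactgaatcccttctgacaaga
Prrx1 +36 kb: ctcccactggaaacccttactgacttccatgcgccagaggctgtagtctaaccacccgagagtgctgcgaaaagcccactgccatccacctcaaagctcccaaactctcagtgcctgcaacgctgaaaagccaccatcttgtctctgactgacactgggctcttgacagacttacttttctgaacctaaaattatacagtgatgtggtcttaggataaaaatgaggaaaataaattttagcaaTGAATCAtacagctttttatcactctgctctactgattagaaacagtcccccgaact
Of those not printed, the stretch at 22.6 kb (91 bases) holds neither pattern and the 300 bases at 74.0 kb hold 2 E-boxes. The promoter holds neither pattern, the intronic sequence at 12 kb holds 2 E-boxes, and the one at 36 kb holds 1 TGANTCA. Of 62930 acetylated regions of at least 300 bases, 77.7% hold CANNTG and 10.7% hold TGANTCA in their central 300 bases, and of 32817 RefSeq promoters 66.2% hold CANNTG in the 250 bases upstream. RefSeq promoters were found for 5 of the 9 genes, and CACCTG, the form of E-box bound by Snail and Zeb proteins, occurred only in that of Snai1, against 17.2% of all promoters.

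Joined over the 4 tumors, the peaks of the 9 genes formed 108 regions. Of these, 33 were present in every tumor, with a median width of 1833 bp, and 45 in a single tumor, with a median width of 218 bp. Regions in a single tumor were mostly in controls, with 23 and 17 in the controls but 2 and 3 in the tests. Over all 91238 regions of the 4 tumors, those found in control 1 alone made up 10.2%, in control 2 alone 9.20%, in test 1 alone 7.90% and in test 2 alone 8.84%. Among the 108 these shares were 21.3%, 15.7%, 1.85% and 2.78%. Control-only regions numbered 7, or 6.48% of the 108, against 3.41% of all regions. They lay at Prrx1 (4), Snai1, Zeb2 and Tcf4 (1 each), so 4 of the 9 genes had one, against 22.3% of all genes with a peak. No region was test-only, the pattern of 1.47% of all regions and found at 12.2% of genes. A further 10 regions were missing from test 2 alone, 9.26% against 6.38% of all regions. Among the 33 regions present in every tumor, 12 were wider in both controls and 1 in both tests, against 13.3% and 19.1% of all such regions, and 19 were narrowest in test 2, as were 35.8% of all such regions.

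**Figure D5:**
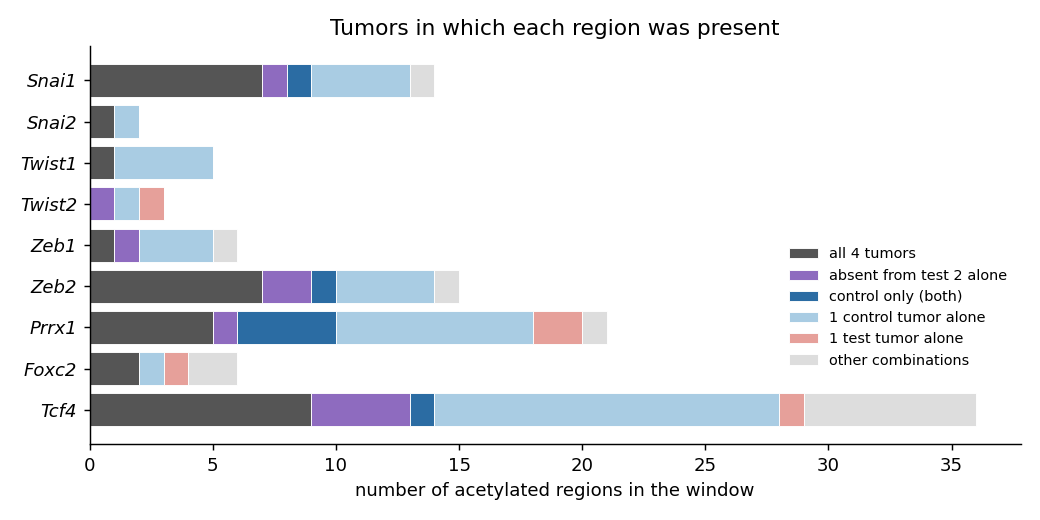
Number of acetylated regions in the window of each gene, split by the tumors in which the region was present. Prrx1 holds 4 of the 7 control-only regions. Regions found in a single control are drawn together, and for Tcf4 they comprise 13 in control 1 alone and 1 in control 2 alone.

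The genes around these factors in the EMT pathway were grouped into lists, whose counts are to be read against the 13% of all genes higher in both controls and the 17.3% higher in both tests. Among 13 further EMT-linked transcription factors with a peak, coverage was higher in both controls for 1 (7.69%; Hmga2, a chromatin architectural protein) and in both tests for none, with a median difference of -0.216, and 3 of the 13 had a control-only region. Among 17 EMT-inducing signals and their transducers the counts were 2 and 1 (11.8% and 5.88%), with a median difference of -1.43 and 12 of 17 lower in the test mean. Fgfr1, a fibroblast growth factor receptor, had 16.8% and 25.9% in the controls and 15.7% and 13.97% in the tests, and Smad2, which carries the TGF-β signal, had 0.664% and 0.896% against 0.960% and 1.32%. Of 15 mesenchymal effectors 5 were higher in both controls (33.3%) and 1 in both tests (6.67%), with a median difference of -1.07. The medians of the signals and the effectors were more negative than the -0.536 of the 9 factors. A control-only region was present at 11 of the 17 signals and 8 of the 15 effectors, both larger shares than the 4 of 9 factors. The share over all genes with a peak was 22.3%, close to that of the 13 further factors. A test-only region was present at 2 of the 17 signals and 3 of the 15 effectors and at none of the further factors, beside 12.2% of all genes. The separate effectors include Vim, the intermediate filament vimentin, at 8.46% and 7.93% in the controls and 6.02% and 5.16% in the tests, and Sparc, a matrix glycoprotein, at 15.1% and 16.4% against 12.3% and 8.79%.

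Epithelial genes were read in the same way. Of 17 epithelial targets, which include genes repressed in EMT, none was higher in both controls and 5 were higher in both tests (29.4%, beside 17.3% of all genes), with a median difference of 0.800. A control-only region was present at 5 of the 17 and a test-only region at 2, beside 22.3% and 12.2% of all genes. Esrp1, an epithelial splicing regulator, had 16.0% and 16.4% in the controls and 22.6% and 17.2% in the tests, and Epcam, an adhesion molecule, had 19.4% and 17.4% against 19.6% and 19.6%. Of 11 epithelial transcription factors with a peak 1 was separate in each direction, 9.09% of the list both times, below the 13% and 17.3% of all genes, with a median difference of 0.338. Of these 11, 1 had a control-only region and 3 had a test-only region, beside the same 22.3% and 12.2% of all genes. Ehf, an ETS factor, had 37.8% and 34.6% in the controls and 39.1% and 39.2% in the tests, whereas Ovol1, which opposes EMT, had 10.4% and 12.3% against 10.2% and 9.24%.

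Markers of other cells of the tumor were also read in these lists, with the percent of window covered summed over each list. Again 13% of all genes were higher in both controls and 17.3% in both tests. Of 11 fibroblast markers with a peak 5 (45.5%) were higher in both controls and 1 (9.09%) in both tests, and their summed coverage was 23.9 to 28.5 in the controls and 15.2 to 24.0 in the tests. Dcn, the fibroblast proteoglycan decorin, was covered over 0.601% and 1.63% of its window in the controls and had no peak in the tests, and 6 fibroblast markers (Lum, Fap, Thy1, Dpt, Col5a1, Col6a1) had no promoter peak in any tumor. Of 12 endothelial markers 7 (58.3%) were higher in both controls and none in both tests, with summed coverage of 66.3 in both controls and 48.3 to 60.1 in the tests, and Kdr, Tek, Tie1 and Erg had no promoter peak in any tumor. Of 13 myeloid markers 8 (61.5%) were higher in both controls and none in both tests, with sums of 112 to 125 and 83.4 to 114 and a median difference of -1.53. C1qa, a complement subunit made by macrophages, had 9.60% and 6.69% against 4.51% and 2.10%, while Csf1r and Adgre1 had no promoter peak. Of 10 myoepithelial markers 3 (30%) were higher in both controls and none in both tests, with sums of 82.4 to 92.2 and 64.1 to 91.3. Of 10 T cell markers 3 (30%) were higher in both controls and 4 (40%) in both tests, with sums of 54.2 to 57.6 and 57.6 to 65.1. Of 8 luminal markers none was higher in both controls and 2 (25%) in both tests, with sums of 170 to 194 and 184 to 195. The median difference was -0.576 for the fibroblast, -0.442 for the endothelial, -0.606 for the myoepithelial, 0.323 for the T cell and 1.32 for the luminal list. A control-only region was present at 3 of 11 fibroblast, 4 of 12 endothelial, 7 of 13 myeloid, 5 of 10 myoepithelial, 3 of 10 T cell and 2 of 8 luminal markers. The share over all genes with a peak was 22.3%, close to that of the fibroblast, T cell and luminal lists. A test-only region was present at 4 T cell, 1 endothelial, 1 myeloid and 1 luminal marker and at no fibroblast or myoepithelial marker, beside 12.2% of all genes. The part of these cell types in the values of Prrx1, Zeb2 and the other EMT factors was not tested.

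The gene whose coverage over the 4 tumors was closest to that of each factor was found by Euclidean distance in percentage points. For Prrx1 it was Lamc1, a laminin subunit, at a distance of 2.24, with 8.78% and 11.3% in the controls and 5.60% and 2.47% in the tests. For Zeb2 it was Nrros, at a distance of 0.274, with 6.96% and 5.33% against 4.38% and 3.10%. For Tcf4 it was Tnfsf4 at 0.562, for Twist1 it was Gli3 at 0.154 and for Snai1 it was D8Ertd738e at 0.228. The distance for Prrx1 exceeded those of the other 8 factors, which were 0.109 to 0.562.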

How the data were processed

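H3K27ac peak lists of 4 tumors (2 control, 2 test) were analysed; files of the 4 inputs were not used. Reads were aligned by the authors to mm10 with BWA, and peaks were called per tumor against its input with MACS2, without pooling of tumors. Each deposited list holds chromosome, start, end and caller peak names in base pairs, with no score, and per the file names were cleaned and merged at 200 bp, and the smallest gap was 201 bp. Merging turns neighboring peaks into 1 interval, so covered length was used beside peak counts. Groups were taken from the genotype in the labels, and tumor numbers only name tumors.

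Genes came from GENCODE M21 on GRCm38.p6, the same assembly as mm10. Coverage is the percent of a window overlapped by peaks. Regions are the union of all peaks of the 4 tumors, present in a tumor with at least 1 bp of peak. Promoter means within 1 kb of the start site. The named genes are all 9 members, plus, in each list, up to 3 genes with the largest separate differences. Also named are the fibroblast, endothelial and myeloid markers with no promoter peak in any tumor. Further named genes are neighbors with a start site in a member's window and genes closest to a member in coverage. The members and lists were chosen with earlier results of these data known. The interval code was tested on simulated data (Python 3.11.15, pandas 2.3.3). Alternatives were other flanks, peak filters, joining, scaling and leaving out each tumor.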

Additional observations from a re-analysis of the deposited data

How the results depend on the processing

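Prrx1, Zeb2, Zeb1 and Tcf4 kept a lower mean coverage in test tumors under all 12 alternatives run. Prrx1 lay between -12.7 and -5.98 points and Zeb2 between -3.56 and -1.37 (without control 1). Tcf4 lay between -2.22 and -0.330 (without control 1) and Zeb1 between -0.822 and -0.161 (without control 2). Foxc2 ranged from -0.157 to 1.08, and without test 2 Snai1 turned to 0.723 and Snai2 to 0.0758. With the same number of widest peaks in each tumor 2 genes, Prrx1 and Zeb2, were higher in both controls and Tcf4 was no longer. No alternative reversed the median difference of the 9 genes, which ran from -3.56 with gene bodies alone to -0.307 with a tumor left out. With 20 kb flanks 1 gene was higher in both tests, with 100 kb flanks 1 region was test-only, and with peaks within 1 kb joined 3 regions were control-only. Leaving out a tumor loosens each criterion by construction. It gave 5 to 7 genes higher in the controls, 0 to 1 higher in the tests, 9 to 31 control-only and 0 to 3 test-only regions, a median of -1.15 (without test 1) to -0.307 (without test 2) and a median near start sites of -5.94 to -2.32, which was -11.1 within 2.5 kb, -7.80 with peaks joined and -2.77 at the best covered transcript start. Control-only regions numbered 26 without control 1, 31 without control 2, 16 without test 1 and 9 without test 2. No paired analysis was possible because the labels carry no replicate numbers, and the 1 and 2 used here were given in accession order and only name a tumor. Peak lists without heights or depth leave unknown how near to the calling threshold a missing peak lay.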
